A study of Mus musculus with 12 samples.

Results

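Transcripts of 7 adhesion molecules through which blood leukocytes hold on to vessel walls were followed in mouse liver and lung 6 h after surgery. They were Sele (E-selectin), Selp (P-selectin), Selplg (the P-selectin ligand PSGL-1), Icam1, Icam2, Vcam1 and Pecam1. They were picked as a named gene family and matched by symbol to the Ensembl identifiers of the count table, where all 7 were found among 55414 genes, and all 7 passed the filter on low counts in each organ. The mice were wild-type C57BL/6J animals that had sham surgery or CLP (the usual short name of cecal ligation and puncture, in which a punctured bowel leaks into the abdomen, a sepsis model). Tissue was taken 6 h later in every group. The 4 groups were liver after sham, liver after CLP, lung after sham and lung after CLP, with 3 libraries each and 12 in all. The age of the animals is not given in the sources used here. RNA came from organ tissue and not from sorted cells, so each value mixes endothelium, leukocytes and parenchyma. Whether the 3 libraries of a group are 3 animals is not stated by the labels, and p-values here reflect no more than the spread among samples, which may be technical.

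Leukocytes leave the blood in steps. The selectins slow them: E-selectin is made by activated endothelium, and P-selectin is stored in Weibel-Palade bodies of endothelium and in platelet granules, and both bind glycans carried by PSGL-1 on leukocytes. Firm adhesion follows when leukocyte integrins bind ICAM-1, ICAM-2 and VCAM-1, and PECAM-1, an endothelial junction protein also found on platelets and leukocytes, takes part in passage between endothelial cells. In textbook accounts Sele, Selp, Icam1 and Vcam1 are induced by cytokines through NF-kB, while Icam2 and Pecam1 are expressed by resting endothelium. Liver sinusoids are a special case, since leukocytes can stop in them with little need of selectins.

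Total counts per library ran from 10559895 to 15854117. Values are given as CPM, the usual depth-scaled count, with libraries scaled within each organ. A floor of 3 counts equals 0.180 to 0.308 CPM, depending on the library. The organ labels matched the markers: 10 hepatocyte transcripts summed to 71749 to 112230 CPM in liver libraries and 47.8 to 146.7 in lung, and 10 transcripts of alveolar type 2 cells, which make surfactant, summed to 23357 to 29281 CPM in lung and 81.8 to 107 in liver. Of 12392 genes tested in liver, 42.3% passed the test of CLP against sham (edgeR's quasi-likelihood test, Benjamini-Hochberg adjusted p below 0.05), and of 15441 in lung 48.9% did, so a call by itself was common in both organs.

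In the liver, 5 of the 7 transcripts were higher after CLP, 0 were lower, and Vcam1 and Pecam1 did not pass the test. Over all genes tested in liver, 21.4% were called higher and 21.0% lower. The median log2 fold change was 1.97 for the 7 transcripts and -0.01 for all genes tested. In the lung, 5 were higher, 1 was lower (Icam2), and Pecam1 did not pass the test, against 23.9% called higher and 24.9% lower among all genes. The median there was 1.31 for the 7 transcripts and -0.03 for all genes. The transcripts called higher in both organs were Sele, Selp, Selplg and Icam1. Vcam1 was called only in the lung, and Icam2 went up in the liver and down in the lung. In these whole-organ samples, a change in the number of cells of a type and a change in RNA per cell cannot be told apart. Libraries of the CLP and sham groups did not overlap for 5 transcripts in liver, all 5 with CLP above sham. Of all genes tested in liver 28.1% lay above and 27.6% below without overlap, 55.7% together. In lung the groups overlapped for 0 of 7, with 5 above (28.6% of all genes) and 2 below (31.1%), against 59.7% of all genes without overlap.

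**Figure D1:**
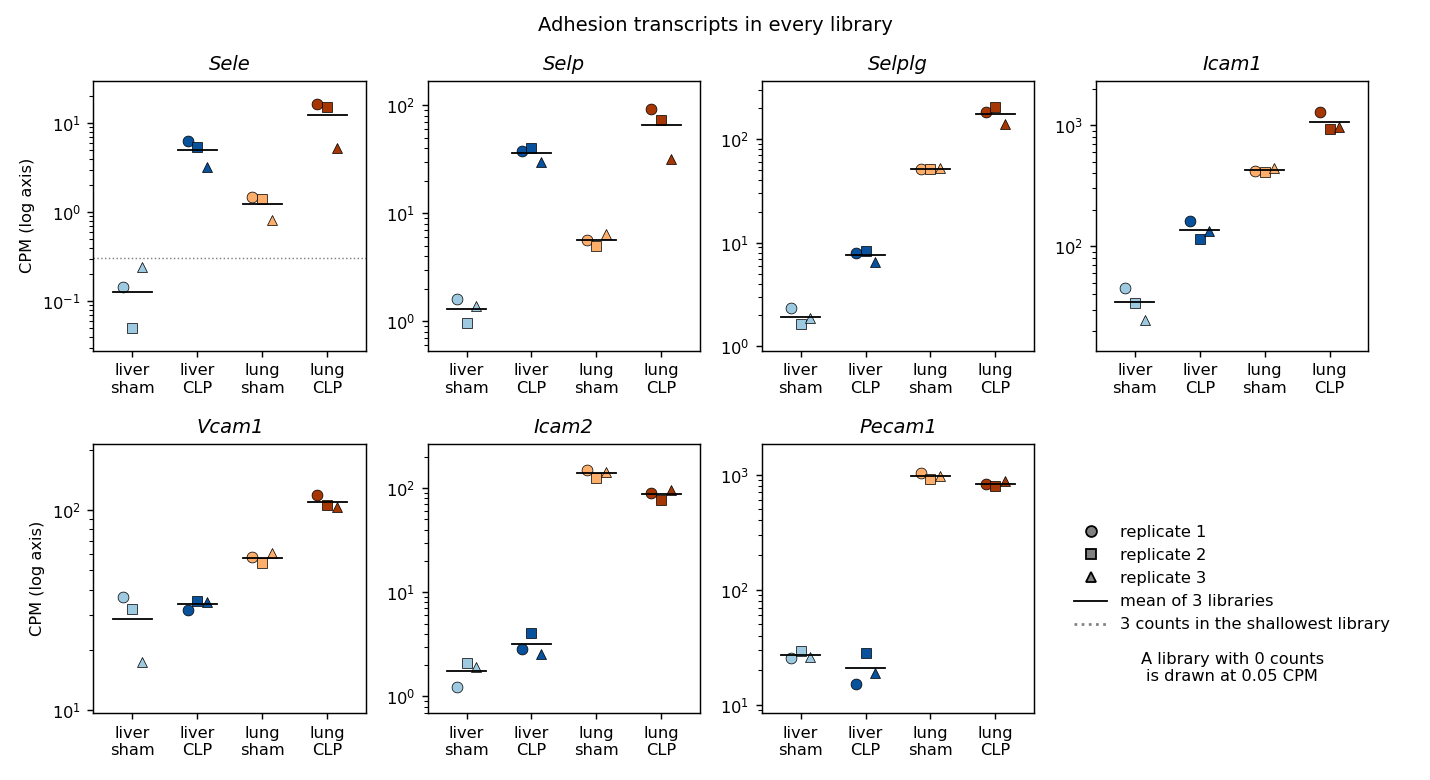
Level of each of the 7 adhesion transcripts in every library, as CPM on a log axis, by organ and surgery; symbols mark the replicate number, bars the mean of 3 libraries, and a dotted line 3 counts in the shallowest library. In liver, Sele rose from at most 0.239 CPM to at least 3.18, while Icam2 and Pecam1 in lung lie lower after CLP in all 3 libraries.

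The selectins had the largest changes. Sele, the endothelial selectin that is nearly silent in resting vessels, had 2, 0 and 4 counts in the sham liver libraries and 82, 67 and 31 in the CLP liver libraries. The sham liver libraries thus lay below the floor of 3 counts or just above it, and every CLP library was far above it. The size of the change in liver rests on 6 sham counts in all. Summed over libraries the ratio was 37.5 (16.9 to 103, 95% exact interval for counting error only), and the log2 fold change was 5.11 ± 0.55 (SE), with an edgeR Benjamini-Hochberg adjusted p of 0.000249. In lung, Sele was at 1.46, 1.42 and 0.821 CPM after sham and 16.5, 15.1 and 5.28 CPM after CLP. The lung groups were thus clearly apart, with CLP replicate 3 the lowest of its group. The log2 fold change in lung was 3.31 ± 0.49 (edgeR, adjusted p = 0.00146).

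Selp, the selectin that endothelium and platelets can put on their surface from stores, was at 1.60, 0.964 and 1.38 CPM in sham liver and 37.9, 40.6 and 30.2 CPM in CLP liver. Each CLP liver library exceeded each sham library many times over. Its log2 fold change was 4.77 ± 0.20 (edgeR, adjusted p = 7.00e-06), rank 6 by p among 12392 genes. In lung it went from 5.69, 4.94 and 6.50 CPM after sham to 93.4, 72.7 and 31.6 CPM after CLP. As with Sele, lung CLP replicate 3 was lowest, and in both organs CLP replicate 3 held the lowest level of each selectin. The log2 fold change in lung was 3.53 ± 0.42 (edgeR, adjusted p = 0.000790). Transcripts of platelets are a further place where Selp can be read. Among all genes tested, 21.4% were called higher and 21.0% lower in liver, and 23.9% and 24.9% in lung. Of 12 platelet and megakaryocyte markers, 4 were tested in liver, where 2 were higher and 1 lower, and 10 in lung, where 4 were higher and 0 lower. Their summed level went from 17.5 to 25.7 CPM in sham liver to 31.2 to 37.0 in CLP liver, and from 62.3 to 75.8 in sham lung to 122 to 198 in CLP lung. The platelet glycoprotein genes Gp1ba, Gp6 and Gp9 were at 0 to 0.162 CPM on average in the liver groups and Gp1bb had 0 counts there. Pf4, which encodes a chemokine of platelet granules, went from 0.764 to 3.07 CPM on average in liver, a log2 fold change of 2.05 ± 0.54 (edgeR, adjusted p = 0.0178), and rose by 0.91 ± 0.22 in lung (edgeR, adjusted p = 0.0104). The highest of the 12 was Itgb3, which encodes an integrin chain that other cells also carry. Itgb3 rose by 1.21 ± 0.23 in liver and 1.67 ± 0.18 in lung on the log2 scale. Its mean went from 9.51 to 21.9 CPM in liver and from 27.9 to 88.7 in lung. Most of the rise of the summed level was thus that of Itgb3 in both organs. The part of platelets in the rise of Selp was not tested.

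Icam1, the endothelial and epithelial ligand of the leukocyte integrins LFA-1 and Mac-1, had the highest level per exon length of the 7 transcripts after CLP in both organs. In liver it was at 45.2, 33.9 and 24.7 CPM after sham and 163, 115 and 133 CPM after CLP. The log2 fold change was 1.99 ± 0.23 (edgeR, adjusted p = 0.000500). In lung, where levels after sham were already high, it went from 418, 413 and 447 CPM to 1287, 922 and 967 CPM. Sham lung libraries were close together, and every CLP lung library was far above them. That was a log2 fold change of 1.31 ± 0.14 (edgeR, adjusted p = 0.000237). With libraries scaled within each organ, mean Icam1 rose by 633 CPM in lung and 103 CPM in liver, while the fold was 2.49 and 3.97. CPM is a share of a library, so these differences depend on how each organ was scaled and are not absolute amounts. In lung, Icam1 is also made by alveolar type 1 cells, and 7 of 10 markers of these cells were lower after CLP and 0 higher, with a summed level of 6924 to 7407 CPM after sham and 3843 to 5519 after CLP. Of all genes tested in lung, 24.9% were called lower and 23.9% higher. The part of alveolar type 1 cells in the lung value was not tested.

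Promoter sequences of the 3 members that RefSeq's table lists are printed here because these transcripts moved together in both organs. Each is the 250 bases before the annotated start on the plus strand of GRCm38.p6, 5′ to 3′, at chr1:164047984-164048233 for Sele, chr1:164115014-164115263 for Selp and chr9:21015690-21015939 for Icam1. No annotated exon lies in these windows. Capitals mark matches to GGNNNTTCC on either strand, a loose form of the site that NF-kB dimers bind, and to the TATA box letters TATAAA on either strand.
Sele: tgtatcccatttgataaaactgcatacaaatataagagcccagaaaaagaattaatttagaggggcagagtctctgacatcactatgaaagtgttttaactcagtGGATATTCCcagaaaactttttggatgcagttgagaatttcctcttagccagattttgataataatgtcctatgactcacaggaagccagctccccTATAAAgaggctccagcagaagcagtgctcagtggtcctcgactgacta
Selp: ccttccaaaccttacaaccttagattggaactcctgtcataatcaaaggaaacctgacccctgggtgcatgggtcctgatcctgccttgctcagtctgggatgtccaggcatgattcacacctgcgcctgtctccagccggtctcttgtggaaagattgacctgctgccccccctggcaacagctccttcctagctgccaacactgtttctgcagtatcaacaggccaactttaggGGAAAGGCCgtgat
Icam1: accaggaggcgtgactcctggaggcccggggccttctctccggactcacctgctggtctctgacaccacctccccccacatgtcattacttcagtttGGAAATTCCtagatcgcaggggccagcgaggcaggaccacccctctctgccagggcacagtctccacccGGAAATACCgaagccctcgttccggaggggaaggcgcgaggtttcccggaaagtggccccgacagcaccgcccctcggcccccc

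The strict NF-kB consensus of 10 letters matched 0 of these 3 windows, against 7.25% of 32851 promoter windows of the same length. GGNNNTTCC matched all 3 and 15.7% of all windows. This motif was picked after these sequences were read, so its match in all 3 is no test against that share. The Sele match lies at -145 to -137 from the start, with TATAAA at -49 to -44. In Icam1 matches lie at -153 to -145, where the loose motif matches on both strands, and at -84 to -76 on the minus strand. The Selp match lies at -14 to -6 on the minus strand. TATAAA occurred in 1 of the 3 windows and in 12.4% of all. These matches describe letters and say nothing of binding in these tissues.

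Vcam1, the ligand of the leukocyte integrin VLA-4, was called in lung but not in liver. In lung it was at 57.9, 54.0 and 60.7 CPM after sham and 119, 105 and 103 CPM after CLP. The groups were tight and apart, and the log2 fold change was 0.92 ± 0.09 (edgeR, adjusted p = 0.000145). In liver it was at 36.5, 31.8 and 17.3 CPM after sham and 31.5, 35.2 and 34.7 CPM after CLP. The 2 groups overlapped, with sham replicate 3 well below the other 5 liver libraries. The log2 fold change in liver was 0.25 ± 0.25 (edgeR, adjusted p = 0.452), and -0.015 without sham replicate 3. The response in lung minus that in liver was 0.65 ± 0.28, and it did not pass the test over both organs (edgeR, adjusted p = 0.134); without liver sham replicate 3 it was 0.96 and passed (edgeR, adjusted p = 0.00100). Vcam1 is also carried by Kupffer cells, the resident macrophages of liver, of whose 8 markers 5 were lower and 1 higher in CLP liver, with a summed level of 524 to 607 CPM after sham and 386 to 484 after CLP. Of all genes tested in liver, 21.0% were called lower and 21.4% higher. The part of Kupffer cells in the liver value was not tested. The level of Vcam1 relative to Icam1 in the same library, as a log2 ratio of counts, went from -0.51 to -0.09 in sham liver to -2.37 to -1.71 in CLP liver, and from -2.93 to -2.85 in sham lung to -3.43 to -3.13 in CLP lung. Icam1 thus gained on Vcam1 in every CLP library of both organs.

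Icam2, an LFA-1 ligand of resting endothelium, moved in opposite directions. In lung it was at 148, 125 and 141 CPM after sham and 90.0, 76.5 and 95.7 CPM after CLP. All 3 CLP lung libraries were below all 3 sham libraries, with a log2 fold change of -0.66 ± 0.11 (edgeR, adjusted p = 0.00143). In liver it was a low transcript, at 1.24, 2.08 and 1.92 CPM after sham and 2.85, 4.09 and 2.57 CPM after CLP, from 77 counts in all sham and 113 in all CLP libraries. The rise of 0.86 ± 0.30 on the log2 scale passed narrowly (edgeR, adjusted p = 0.0443). Its call ended without any of 5 of the 6 liver libraries: at an adjusted p of 0.0627 without CLP replicate 1, 0.140 without CLP replicate 2, 0.114 without sham replicate 1, 0.0595 without sham replicate 2 and 0.0837 without sham replicate 3, all by edgeR. It also ended with library totals alone (0.68, edgeR adjusted p = 0.0903) and with upper-quartile scaling (0.78, edgeR adjusted p = 0.0657). The difference between organs did pass: the response in lung minus that in liver was -1.56 ± 0.27 (edgeR, adjusted p = 0.00168), where 17.7% of 16111 genes were called in either direction, 8.84% with a lower and 8.89% with a higher value in lung. Markers of lung epithelium (20 genes) were in liver libraries at no more than 0.125% of their lung level, and Icam2 at the share of each library would make up 1.40% to 5.99% of its level there.

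Pecam1, the junction protein CD31 that is widely used to mark endothelium, passed the test in neither organ. In lung it was at 1030, 920 and 975 CPM after sham and 824, 791 and 875 CPM after CLP. The groups did not overlap, yet the difference of -0.23 ± 0.09 on the log2 scale missed the threshold (edgeR, adjusted p = 0.0729). It passed with library totals alone (-0.34, edgeR adjusted p = 0.0176) and with upper-quartile scaling (-0.34, edgeR adjusted p = 0.0148). In liver Pecam1 was at 25.4, 29.2 and 26.0 CPM after sham and 15.2, 28.1 and 18.9 CPM after CLP. Here CLP replicate 2 lay within the sham range and the groups overlapped, and the value was -0.37 ± 0.21 (edgeR, adjusted p = 0.186), or -0.66 without CLP replicate 2 (edgeR, adjusted p = 0.00581) and -0.57 with library totals alone (edgeR, adjusted p = 0.0481).

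Selplg, the leukocyte side of the selectin pair, rose in both organs. In liver it was at 2.33, 1.63 and 1.86 CPM after sham and 8.0, 8.27 and 6.57 CPM after CLP. The log2 fold change was 1.97 ± 0.21 (edgeR, adjusted p = 0.000223). In lung it was at 51.0, 51.5 and 52.7 CPM after sham and at 182, 202 and 139 CPM after CLP. That gave 1.75 ± 0.13 (edgeR, adjusted p = 7.58e-05). PSGL-1 is carried by most kinds of leukocyte, and their markers were read beside it. Among all genes tested, 21.4% were called higher and 21.0% lower in liver, and 23.9% and 24.9% in lung. Of 10 pan-leukocyte markers 8 were higher in liver and 9 in lung, with 0 lower, and their summed level went from 114 to 126 CPM in sham liver to 220 to 252 in CLP liver, and from 781 to 914 in sham lung to 2208 to 3020 in CLP lung. All 12 tested neutrophil markers of 14 listed were higher in liver and all 14 in lung, with summed levels of 22.6 to 27.4 against 216 to 293 CPM in liver and 1099 to 1230 against 7554 to 10799 CPM in lung. Of the monocyte markers 8 of 10 tested were higher and 0 lower in liver, and 9 of 11 higher and 2 lower in lung. Of the T and NK cell markers 1 of 3 tested was higher and 1 lower in liver, and 11 of 14 higher and 0 lower in lung. The single B cell marker tested in liver, Bank1, was lower (-1.97 ± 0.37). In lung 2 of 8 B cell markers were higher, near the share of all genes, and 1 was lower. Ptprc, which encodes the leukocyte antigen CD45, rose by 1.19 ± 0.12 in liver and 1.92 ± 0.16 in lung on the log2 scale. The part of incoming leukocytes in the rise of Selplg was not tested.

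**Figure D2:**
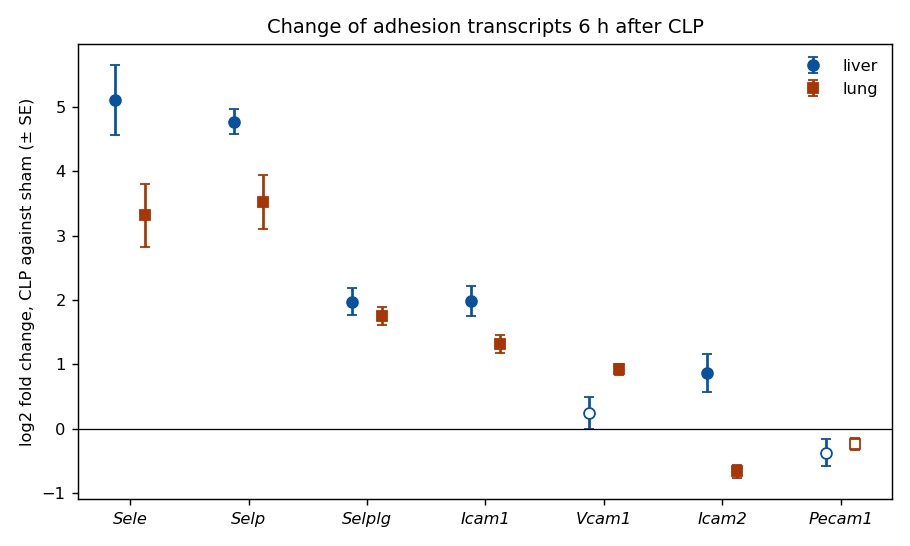
Log2 fold change of CLP against sham with its standard error for each of the 7 transcripts, liver as circles and lung as squares, with filled symbols where the adjusted p in edgeR was below 0.05. Sele and Selp stand at 5.11 and 4.77 in liver and 3.31 and 3.53 in lung, and Icam2 lies above 0 in liver and below 0 in lung.

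For the 6 transcripts other than Icam2, Vcam1 among them (edgeR, adjusted p = 0.134), the difference in response between organs did not pass the test. It was -1.87 ± 0.99 for Sele (edgeR, adjusted p = 0.227), -1.28 ± 0.55 for Selp (0.138), -0.26 ± 0.23 for Selplg (0.513), -0.70 ± 0.28 for Icam1 (0.105) and 0.11 ± 0.24 for Pecam1 (0.827). Icam1, Vcam1 and Selp were nearest the threshold. Selp passed without lung CLP replicate 1 (-1.62, edgeR adjusted p = 0.0436) and without lung CLP replicate 3 (-0.94, 0.0378), and in DESeq2 (-1.29, adjusted p = 0.0464). Icam1 passed without liver sham replicate 1 (-0.86, edgeR adjusted p = 0.0404), and with a replicate block in each organ. With a replicate block within surgery, chosen after seeing the data, Selp (edgeR, adjusted p = 0.0237) and Icam1 (0.0364) passed. The labels do not say whether liver and lung libraries came from the same mice, and the test took them as independent. A p above the threshold does not show that the organs responded alike.

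Levels after sham surgery separated the transcripts by organ, and no group went without surgery. In sham lung against sham liver, 4 of 7 were higher and 0 lower, where 80.8% of all genes were called, 44.4% higher and 36.5% lower. Icam2 had the largest difference, 4.94 ± 0.19 on the log2 scale, followed by Pecam1 at 3.82 ± 0.19, Selplg at 3.38 ± 0.18 and Icam1 at 2.27 ± 0.21 (edgeR, adjusted p at most 2.34e-07 for each). Sele (1.78 ± 0.90), Selp (0.75 ± 0.46) and Vcam1 (-0.34 ± 0.20) did not pass. These values depend on how liver and lung are put on 1 scale. With library totals alone all genes shifted to a median of 1.497, from 0.19, and Vcam1 then read 0.96 (edgeR adjusted p = 0.000649), Sele 3.05 (0.00316) and Selp 2.06 (0.000685). Vcam1 had the lowest value of the 7 on both scales, and without liver sham replicate 3 it was called lower in lung (-0.68, edgeR adjusted p = 6.32e-05).

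Per kilobase of exon, which allows levels of different genes to be compared, sham liver was led by Icam1 at 7.93 ± 2.36 CPM per kilobase (SD, n = 3). Pecam1 (4.31 ± 0.330) and Vcam1 (3.22 ± 1.13) followed and were not separated from each other. Below them came Icam2 (0.915 ± 0.234), Selplg (0.454 ± 0.0832), Selp (0.298 ± 0.0732) and Sele (0.0441 ± 0.0414), each apart from its neighbours. After CLP the order in liver changed: Icam1 stood at 31.4 ± 5.52 and Selp moved from place 6 to place 2 at 8.21 ± 1.23 CPM per kilobase, above Vcam1 (3.81 ± 0.225) and Pecam1 (3.33 ± 1.07), which overlapped. Selplg (1.78 ± 0.213), Sele (1.70 ± 0.551) and Icam2 (1.66 ± 0.427) were last and not separated. In sham lung Pecam1 led at 157 ± 8.78 CPM per kilobase, ahead of Icam1 (97.7 ± 4.18) and Icam2 (72.6 ± 6.26), with Selplg (12.1 ± 0.209), Vcam1 (6.49 ± 0.377), Selp (1.29 ± 0.176) and Sele (0.424 ± 0.123) far below and each apart. After CLP Icam1 led the lung at 243 ± 45.7 and Pecam1 was second at 133 ± 6.75 CPM per kilobase. Icam2 (45.9 ± 5.18) and Selplg (40.8 ± 7.53) then overlapped, as did Selp (14.9 ± 7.13) and Vcam1 (12.3 ± 0.973), and Sele stayed last at 4.21 ± 2.09. With the mean transcript length in place of the merged exons, the top place was kept in each group, while Icam1 and Icam2 changed places in sham lung, Icam2 and Selplg in CLP lung, and Sele and Icam2 in CLP liver.

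The endothelium itself did not keep a constant signal. Among all genes tested, 21.4% were called higher and 21.0% lower in liver, and 23.9% and 24.9% in lung. Of 20 pan-endothelial markers, 9 were lower and 6 higher in CLP liver, and 10 lower and 5 higher in CLP lung, the 5 near the share of all genes. They moved apart from each other: Kdr, the main VEGF receptor, fell by 3.16 in liver and by 1.28 in lung on the log2 scale, while Cdh5, the endothelial cadherin, rose by 1.62 in liver and was at 0.35 without passing in lung. The mean log2 level of the 20 went from 3.35 to 3.47 in sham liver to 2.97 to 3.15 in CLP liver, and from 7.66 to 7.78 in sham lung to 7.24 to 7.38 in CLP lung. Relative to this mean, as log2(CPM + 0.5), Selp was 4.66 higher after CLP in liver and 3.70 in lung. Icam1 was 2.32 and 1.71 higher, and Vcam1 0.63 and 1.33. Libraries did not overlap in any of these, but the share of all genes without overlap was not computed on this scale. For Vcam1 in liver the gap was narrow, with sham libraries at 1.86, 1.55 and 0.75 and CLP libraries at 1.99 to 2.03. The fall of the marker mean is part of that difference, and Vcam1 itself was not called in liver. Pecam1 was at -0.09 in liver, where the groups overlapped, and 0.18 higher in lung. Icam2 was 0.25 lower in lung and 1.03 higher in liver. On this scale the fall of Icam2 in lung shrank but its libraries still did not overlap, and Pecam1 in lung changed sign.

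**Figure D3:**
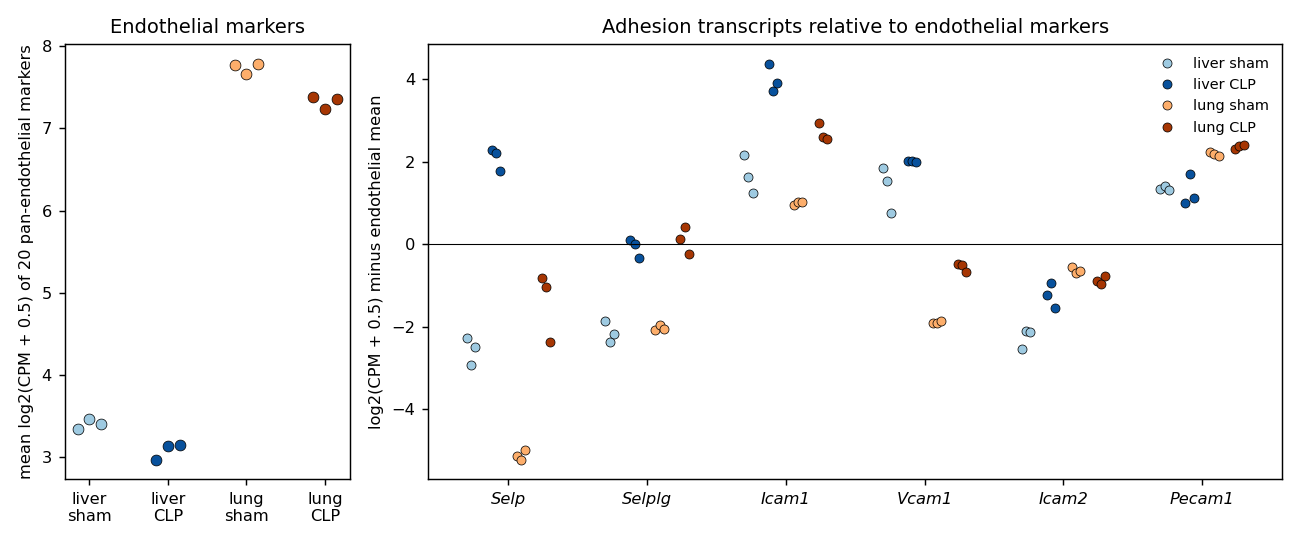
Left, mean log2(CPM + 0.5) of 20 pan-endothelial markers in each library; right, log2(CPM + 0.5) of 6 adhesion transcripts minus that mean, with Sele left out because its sham liver libraries hold 0 to 4 counts. The marker mean is lower after CLP in both organs, and Selp, Icam1 and Vcam1 stand higher against it in every CLP library. Vcam1 in liver does so narrowly, with sham libraries up to 1.86 and CLP libraries from 1.99.

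Sinusoidal markers in liver and capillary markers in lung were mostly called lower. Among all genes 21.0% were called lower and 21.4% higher in liver, and 24.9% and 23.9% in lung. Of 11 sinusoidal markers in liver 9 were lower and 1, Lyve1, was higher, with a summed level of 572 to 668 CPM after sham and 475 to 523 after CLP. Of 11 lung capillary markers 7 were lower and 1 higher in lung, with 3795 to 4666 CPM after sham and 2294 to 3238 after CLP. Of 10 markers of veins and larger vessels, 5 were lower and 2 higher in lung, and 2 lower and 2 higher of 7 tested in liver. Their summed level went from 1590 to 1737 CPM in sham lung to 923 to 1293 in CLP lung. In liver the sum went the other way, from 59.0 to 68.7 CPM after sham to 89.4 to 170 after CLP. That rise was carried by 1 marker, Lepr, which went from 20.9 to 92.3 CPM on average. Nr2f2, another of them, fell from 19.9 to 5.30 CPM in liver, so the sum does not show that these markers rose together. The part of these kinds of vessel in the values of the 7 transcripts was not tested. In lung, the 9 mesothelial markers, which mark another cell layer that can carry Icam1 and Vcam1, had 6 lower and 0 higher, and in liver none of the 9 passed the filter on low counts.

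The partners of the 7 transcripts in the adhesion cascade were read from lists of related genes. Over all genes tested, 21.4% were called higher and 21.0% lower in liver, and 23.9% and 24.9% in lung. Among other selectin and mucin-type partners, 5 of 7 tested rose in each organ, and 1, Glg1, the E-selectin ligand ESL-1, fell in lung (-0.37 ± 0.08) and rose in liver (0.34 ± 0.08). Cd44, a glycoprotein that can bind E-selectin, rose by 2.19 ± 0.13 in liver and 1.67 ± 0.17 in lung. The mucins of high endothelial venules were barely read: Glycam1 had 0 counts in every library and Madcam1 averaged no more than 0.0518 CPM in any group.

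Among leukocyte integrins and their activators, 7 of 14 tested rose and 1 fell in liver, and 9 rose and 1 fell in lung. The shares of all genes called higher and lower were 21.4% and 21.0% in liver and 23.9% and 24.9% in lung. Itgb2, the chain shared by LFA-1 and Mac-1, rose by 1.66 ± 0.17 in liver and 1.97 ± 0.22 in lung. Itgam, the Mac-1 alpha chain, went from 9.82 to 163 CPM on average in lung, a log2 fold change of 4.05 ± 0.25, and rose by 1.77 ± 0.32 in liver. Itgal, the LFA-1 alpha chain, was at 0.26 in liver without passing the test and rose by 1.44 ± 0.29 in lung. Itga4, the VLA-4 chain that binds VCAM-1, was at 0.50 in liver without passing and rose by 0.75 ± 0.12 in lung. Rasgrp2, an activator of Rap1 in platelets and leukocytes, fell in both organs, with log2 fold changes of -1.796 in liver and -1.25 in lung.

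Of 12 tested enzymes that build the selectin-binding glycans, 4 rose and 0 fell in liver, where 21.4% of all genes were called higher and 21.0% lower. Of 16 tested in lung 4 rose and 4 fell, where 23.9% of all genes were called higher and 24.9% lower. B4galt1, a galactosyltransferase, rose by 0.89 ± 0.10 in liver and 0.88 ± 0.10 in lung, and Chst2, a sulfotransferase, fell by 1.21 in lung on the log2 scale. Fut7, a fucosyltransferase needed for selectin ligands, was at 1.45 CPM in sham and 1.61 in CLP lung and did not pass (log2 fold change 0.15). Of 8 sheddases and their regulators, which cut adhesion molecules from the cell surface, 6 rose and 0 fell in each organ. They included Adam17 (1.05 ± 0.13 in liver and 0.45 ± 0.14 in lung), Adam9 (1.35 ± 0.15 and 0.72 ± 0.10) and Rhbdf2, a cofactor of ADAM17 (1.17 ± 0.14 and 1.62 ± 0.15).

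Genes of Weibel-Palade bodies, the organelles that hold P-selectin, moved in both directions. In liver 3 of 8 rose and 2 fell, where 21.4% of all genes were called higher and 21.0% lower. In lung 2 of 9 rose and 3 fell, where 23.9% were called higher and 24.9% lower. The medians of the list were -0.10 and -0.23. Vwf, the main cargo, was at 0.12 in liver without passing and fell by 0.66 in lung on the log2 scale, from 760 to 479 CPM on average. Angpt2, another cargo, rose by 3.50 ± 0.41 in liver and was at -0.45 in lung without passing. Cd63, a membrane protein of these bodies and of lysosomes, rose by 1.66 ± 0.46 in liver and 0.70 ± 0.09 in lung. Selp thus rose in both organs while Vwf rose in neither.

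Other adhesion molecules of the immunoglobulin type had 6 higher and 1 lower of 9 tested in liver, where 21.4% of all genes were higher and 21.0% lower. In lung they had 4 higher and 3 lower of 13, near the 23.9% and 24.9% of all genes. Their median in lung was -0.004, against -0.03 for all genes. Mcam, an endothelial and mural cell adhesion molecule, rose by 1.43 ± 0.15 in liver and 0.99 ± 0.14 in lung. Cd99l2, which takes part in leukocyte passage between endothelial cells, fell by 0.88 in lung and was at -0.30 in liver without passing. Jam2, a junctional adhesion molecule, fell by 0.43 in lung. Alcam was among those called in both organs with opposite signs, at 0.99 in liver and -0.39 in lung, and it was named after its values were seen. Icam4 and Icam5, the remaining genes of the Icam family in the list, averaged no more than 0.891 CPM in any group.

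Cytokine receptors and genes of the NF-kB relay, a list that also holds inhibitors of the relay, rose in 14 of 19 cases in liver, with 1, Il1rap, lower. In lung 18 of 19 rose and 0 were lower. Among all genes 21.4% were called higher in liver and 23.9% in lung. The medians of the list were 0.94 in liver and 1.03 in lung. Nfkbia, the inhibitor that NF-kB itself induces, rose by 2.33 ± 0.13 in liver and 2.12 ± 0.18 in lung, and Myd88, the adaptor of Toll-like and interleukin-1 receptors, by 1.40 ± 0.12 and 1.68 ± 0.09. These lists were chosen with earlier results of these data known, so their counts are descriptions.

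**Figure D4:**
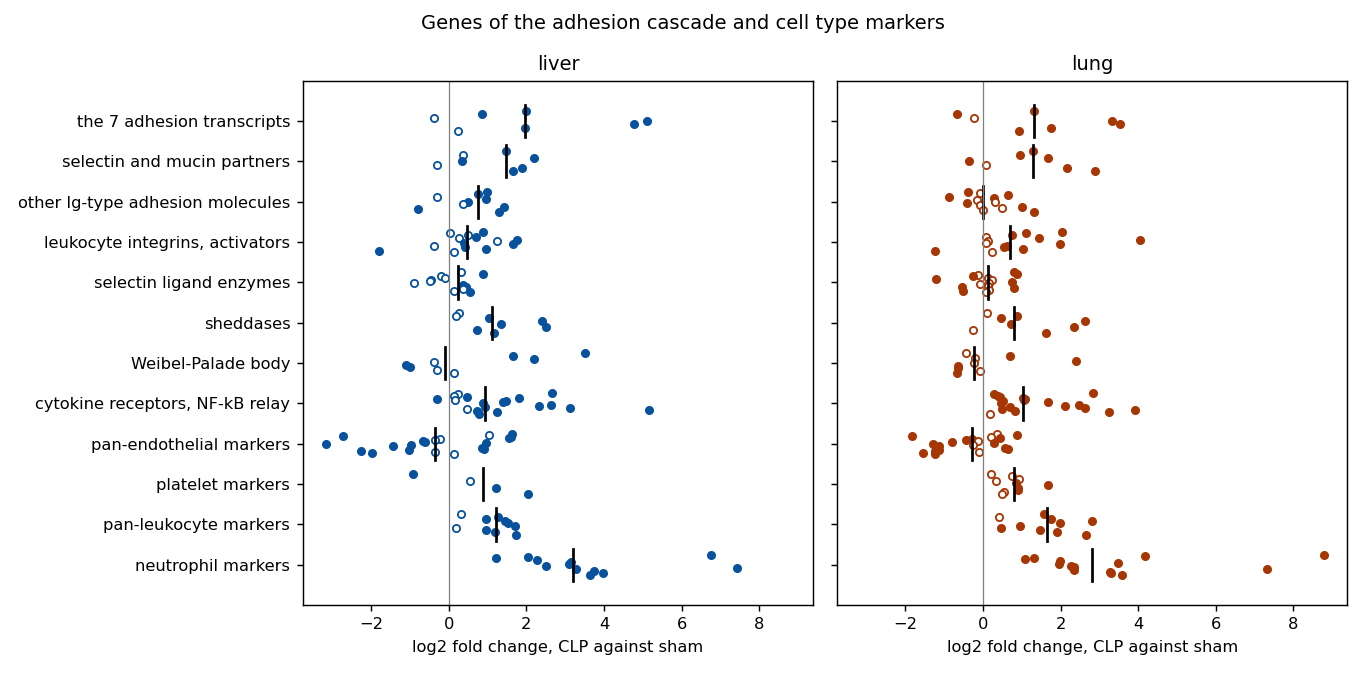
Log2 fold change of CLP against sham in liver (left) and lung (right) for each tested gene of the 7 adhesion transcripts, of 7 further gene lists of the adhesion cascade and of 4 cell type marker lists; filled points had an adjusted p below 0.05 in edgeR and black bars are list medians. The cytokine relay list has medians of 0.94 and 1.03, and the Weibel-Palade list medians of -0.10 and -0.23.

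Patterns over the 12 libraries were compared after the mean of each organ was subtracted, so the correlations describe CLP against sham and the spread between libraries, and the libraries share the same surgery groups and scaling. Among the 7, Sele, Selp, Selplg and Icam1 followed each other with Pearson r of 0.92 to 0.99. Vcam1 correlated with these 4 at 0.55 to 0.73, Icam2 at 0.10 to 0.23 and Pecam1 at -0.72 to -0.65. Among 7398 other genes with a sufficient level, the patterns most like Selp were those of Cd44 (r = 0.999), Rnd1 (0.992) and Syk (0.992). Closest to Icam1 were Mvp (0.990), Tlr2 (0.989) and Il1r1 (0.987), and closest to Selplg were Rhoc (0.995), Slfn4 (0.992) and Nfkb2 (0.991). The genes most like Sele were Sh3bgrl3 (0.983), Cd44 (0.980) and Selp itself (0.980). The nearest patterns to Icam2 (Asb3, 0.938), Vcam1 (Trub2, 0.917) and Pecam1 (C1galt1, 0.947) were less close.

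Annotated exons on the opposite strand overlap 3 of the 7 genes: Icam1 over 11.7% of its exon bases (Gm47079), Selp over 9.93% (Gm16548) and 4.21% (Gm16587), and Vcam1 over 0.688% (Gm43109). Without a stated strand setting, reads there cannot be told apart. Gm47079 and Gm43109 had 0 to 4 counts in every library. Gm16548 had 85 to 157 counts in sham liver and 33 to 42 in CLP liver, the opposite direction to Selp, and 0 to 2 in lung. Gm16587 had 0 to 9 counts in every library.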

How the data were processed

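RNA of 12 libraries was counted per gene by the authors. The authors deposited raw integer counts for Ensembl genes, and the libraries were made with a stranded TruSeq kit, per the labels' protocols. STAR 2.7.10a, featureCounts, FastQC, DESeq2 and mm39 are named without role or order, per the submitters' processing notes. Annotation release and strand setting: not given in the sources used here. No position on mm39 is given, and GENCODE M21 (GRCm38) served for exon lengths and overlaps. Promoters are from RefSeq's GRCm38.p6 table.

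The quasi-likelihood test of edgeR 4.0.16 (R 4.3.3) was run on each organ's 6 libraries after edgeR's filter (minimum count 10, minimum total 15) and scaling by the trimmed mean of M values. P-values are two-sided and Benjamini-Hochberg adjusted over all genes tested, with a threshold of 0.05. Organ differences used all 12 libraries in 1 model. The standard error is the log2 fold change divided by the square root of F, an approximation. Alternatives used limma 3.58.1, DESeq2 1.42.0, other scalings, no filter, a replicate block, a shared fit and each library left out. On simulated data it recovered 76% of genes given a log2 change of 1 and 98% of those given 2 for liver (12098 genes), with 6.95% of calls false, and 83% and 98% for lung (15078 genes), with 11.7% false. No pair of replicates agreed within sampling noise (chi-square per degree of freedom 5.28 to 37.6).

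The members, 26 lists and tests were chosen with earlier results of these data known. Named are the 7 members, the genes of lowest p per list, organ and direction, the marker of highest mean or lowest p per marker list, the 3 genes of most similar pattern, and others that describe a member's partners, chosen after their values were seen. A gene of these lists is not reported here.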

Additional observations from a re-analysis of the deposited data

Results flagged for a closer look

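Icam2 had a response to CLP that differed between organs by a test of the difference itself. The value in lung minus that in liver was -1.558 as a log2 value (adjusted p = 0.00168 in edgeR). All 3 CLP libraries were lower than all 3 sham libraries in lung, as for 31.1% of all genes tested there. All 3 were higher in liver, as for 28.1% of all genes tested there. The rise in liver by itself was not firm, since its call was lost in 5 of 6 fits with a library left out. In leave-one-out fits the difference between organs ran from -1.63 to -1.26, with edgeR adjusted p-values up to 0.00690.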

How the results depend on the processing

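In liver and lung, the calls of Sele, Selp, Selplg and Icam1, and in lung those of Icam2 and Vcam1, held in direction and significance under each of 14 alternatives per organ. Fits with each library left out gave 4.61 to 5.91 for Sele, 4.61 to 4.93 for Selp and 1.79 to 2.23 for Icam1 in liver, and 3.05 to 3.71, 3.19 to 3.90 and 1.15 to 1.44 in lung. Icam2 in liver ran from 0.64 to 1.00, Vcam1 in liver from -0.015 to 0.47 and Pecam1 in liver from -0.66 to -0.18. The number of the 7 transcripts called lower in liver went from 0 to 1 with library totals alone, and ran from 0 to 1 with a library left out; in lung it was 2 with library totals alone or upper-quartile scaling. Icam2 in liver was 0.68 with library totals alone and 0.78 with upper-quartile scaling, and not called. Pecam1 was called at -0.57 in liver with library totals alone, and in lung at -0.34 with library totals alone or upper-quartile scaling. For lung minus liver, Selp was called in DESeq2 (-1.29), and fits with a library left out ran from -1.62 to -0.94 for Selp, -0.87 to -0.46 for Icam1, 0.51 to 0.96 for Vcam1 and -0.0015 to 0.47 for Pecam1. For sham lung against sham liver, Sele was called at 3.05 with library totals alone, 2.02 with upper-quartile scaling and 1.92 in DESeq2, Selp at 2.06 with library totals alone and 0.85 in DESeq2, and Vcam1 reversed to 0.96 with library totals alone and ran from -0.68 to -0.22 with a library left out. Library totals alone gave 1689 higher genes in liver, and 11983 higher and 2401 lower in sham lung against sham liver, in place of 2647, 7146 and 5875. Higher genes were 50.4% of calls in liver and 49.0% in lung, and 30.8% and 38.0% with library totals alone, whose median gene lay at -0.21 and -0.13, or 40.3% and 37.2% with upper-quartile scaling (-0.11 and -0.14). With library totals alone they were 65.8% of calls for lung minus liver and 83.3% for sham lung against sham liver, in place of 50.1% and 54.9%. The cause of these changes was not tested.

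Libraries of CLP and sham with the same replicate number deviated together by r of 0.02 to 0.23 in liver and -0.11 to 0.04 in lung, and 2 of 3 and 0 of 3 correlated best with their own number, so the numbers were not taken to pair them. With a replicate block in each organ, Icam1 was called in lung minus liver at -0.74 (edgeR, adjusted p = 0.0483), and no other call of the 7 transcripts changed. Between organs, same-numbered libraries had r of 0.11 to 0.35 after CLP, each best with its own number, and -0.03 to 0.15 after sham. A replicate block within surgery, chosen after seeing the data, gave calls for Selp (-1.39, edgeR adjusted p = 0.0237) and Icam1 (-0.74, 0.0364) in lung minus liver, and for Sele (1.76, 0.0221) and Selp (0.77, 0.0447) in sham lung against sham liver. Depth limits Sele, Selp, Icam2 and Selplg in liver, with 6, 58, 77 and 85 counts over the sham libraries.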
